A study of Mus musculus with 36 samples.

Results

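Lamina propria lymphocyte (LPL) preparations from the small intestine of mice without the long noncoding RNA lnc13 (knockout, KO) were compared with those of wild-type (WT) mice, library by library and over all genes. They were chosen by their sample titles, and they make up 4 of the 36 samples of the series, 2 from lnc13-KO-DQ8 mice and 2 from lnc13-WT-DQ8 mice. Every one of these mice carried DQ8, a human MHC class II molecule that raises the risk of coeliac disease, and had been challenged with gluten, the cereal protein that provokes the disease. Polyadenylated RNA was sequenced and counted per gene. The 4 libraries were fitted together with 4 intraepithelial lymphocyte (IEL) and 4 whole-tissue libraries of the same genotypes, so that 12 libraries in 6 groups shared 1 estimate of spread. The labels call replicates biological and say nothing of the number of animals, their age or sex, or how the preparations were made, and p-values measure the spread between these samples.

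The lamina propria is the connective tissue under the gut epithelium. It holds antibody-secreting plasma cells, macrophages and dendritic cells that carry antigen on MHC class II, innate lymphoid cells and helper T cells. Gluten peptides bound to DQ8 are seen by helper T cells there, and type I interferon is among the signals that can turn the response to food antigens from tolerance to inflammation. Type I interferon acts through a factor complex that includes Stat2 and Irf9 and binds a repeated GAAA element in the promoters of antiviral genes. lnc13 lies in the Il18rap neighbourhood, and in earlier work on macrophages it held down a group of inflammatory genes.

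Every listed gene of that interferon response was lower in both KO libraries than in WT replicate 2, so the promoters of 4 that hold the element are shown, with each match in capitals. The windows run from 250 bases before to 50 bases after the RefSeq gene start on GRCm38.p6, in the sense of the gene. They lie at chr4:156200769-156201068 on the minus strand for Isg15, a ubiquitin-like modifier, chr19:34640639-34640938 on the plus strand for Ifit1, which binds foreign RNA caps, chr5:120907476-120907775 on the minus strand for Oas1a, a sensor of double-stranded RNA, and chr8:71537423-71537722 on the minus strand for Bst2, the virion tether.
Isg15: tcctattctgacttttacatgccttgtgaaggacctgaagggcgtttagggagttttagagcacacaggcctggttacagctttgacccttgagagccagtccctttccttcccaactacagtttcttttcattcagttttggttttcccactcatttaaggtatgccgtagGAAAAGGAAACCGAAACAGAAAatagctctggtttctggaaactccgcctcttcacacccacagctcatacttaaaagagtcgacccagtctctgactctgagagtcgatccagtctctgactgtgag
Ifit1: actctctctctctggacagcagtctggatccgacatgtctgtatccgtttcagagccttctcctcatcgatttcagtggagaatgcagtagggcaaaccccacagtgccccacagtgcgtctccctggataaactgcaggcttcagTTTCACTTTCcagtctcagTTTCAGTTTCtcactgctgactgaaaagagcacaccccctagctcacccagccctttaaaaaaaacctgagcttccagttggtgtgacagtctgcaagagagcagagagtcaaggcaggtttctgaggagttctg
Oas1a: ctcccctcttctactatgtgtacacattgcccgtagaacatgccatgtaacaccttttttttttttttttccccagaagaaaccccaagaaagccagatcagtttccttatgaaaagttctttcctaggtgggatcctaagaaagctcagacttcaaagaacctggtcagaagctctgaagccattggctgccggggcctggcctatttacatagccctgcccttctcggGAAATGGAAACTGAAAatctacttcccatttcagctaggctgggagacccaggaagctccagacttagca
Bst2: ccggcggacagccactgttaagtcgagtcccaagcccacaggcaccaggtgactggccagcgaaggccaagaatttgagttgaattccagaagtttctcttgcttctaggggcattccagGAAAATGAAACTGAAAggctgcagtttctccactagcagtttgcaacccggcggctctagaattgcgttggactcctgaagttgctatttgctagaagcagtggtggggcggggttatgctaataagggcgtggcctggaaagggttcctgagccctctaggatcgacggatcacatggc
The letters searched were GAAA, any 2 bases and GAAA again, or the reverse complement, TTTC, any 2 bases and TTTC again, on both strands and with overlapping matches included. They were found in 12 of the 19 type I interferon response genes with a promoter in the RefSeq table (63.2%), against 1079 of all 27025 genes (3.99%) and 1131 of all 32851 windows (3.44%). Among interferon-gamma response genes the share was 11 of 14 (78.6%). A match is only a run of letters and does not show that a factor bound there.

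Reads in genes numbered 11813055 and 12898125 in the KO libraries and 10969733 and 12651309 in the WT libraries, where within a genotype replicate 1 always comes first. Levels are CPM, read counts scaled to library size with TMM factors, and 3 reads correspond to 0.260 and 0.185 CPM in the KO libraries and 0.225 and 0.195 CPM in the WT libraries. WT replicate 1 stood apart. Its log-scale correlation with the other 3 LPL libraries was 0.929 to 0.941, whereas those 3 correlated with each other at 0.972 to 0.987. Results are therefore given with this library and against WT replicate 2 alone. lnc13 was not analysed here, so the genotype labels were not checked by the RNA that was removed.

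The label was then checked against leukocyte genes. The 15 pan-leukocyte genes summed to 131 and 115 CPM in the KO libraries and to 1034 and 109 CPM in the WT libraries. WT replicate 1 thus carried far more leukocyte RNA than the other 3 libraries, which spanned 109 to 131 CPM and lay below the 204 to 406 CPM of whole tissue. Ptprc, the CD45 gene that all leukocytes express, was at 6.84 and 11.5 CPM in the KO libraries and 167 and 11.2 CPM in the WT libraries. The 14 pan-epithelial genes summed to 15833 and 15247 CPM in the KO libraries and 11861 and 15949 CPM in the WT libraries, near the IEL libraries (13302 to 15287 CPM) and below every tissue library (27442 to 38187 CPM). The list of immunoglobulin constant and transport genes summed to 19533 and 9541 CPM in the KO libraries and 40836 and 8907 CPM in the WT libraries, above every IEL and tissue library (4644 to 6866 CPM). That sum includes Pigr, the epithelial receptor that carries IgA, at 4046 and 4341 CPM in the KO libraries and 3211 and 4870 CPM in the WT libraries. WT replicate 1, the library richest in leukocyte RNA, held the least epithelial RNA. All 4 preparations also held RNA of 21 exocrine pancreas genes, at 16497 and 7876 CPM in the KO libraries and 9423 and 8830 CPM in the WT libraries, against at most 727 CPM in any IEL or tissue library. Immediate early and heat shock genes summed to 16118 and 18446 CPM in the KO libraries and 16026 and 17862 CPM in the WT libraries, above every IEL library (8578 to 10699 CPM) and every tissue library (2447 to 3432 CPM). In all 4 libraries pan-epithelial genes thus summed to far more than pan-leukocyte genes. In bulk RNA, fewer cells of a type and less RNA per cell cannot be told apart.

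**Figure D1:**
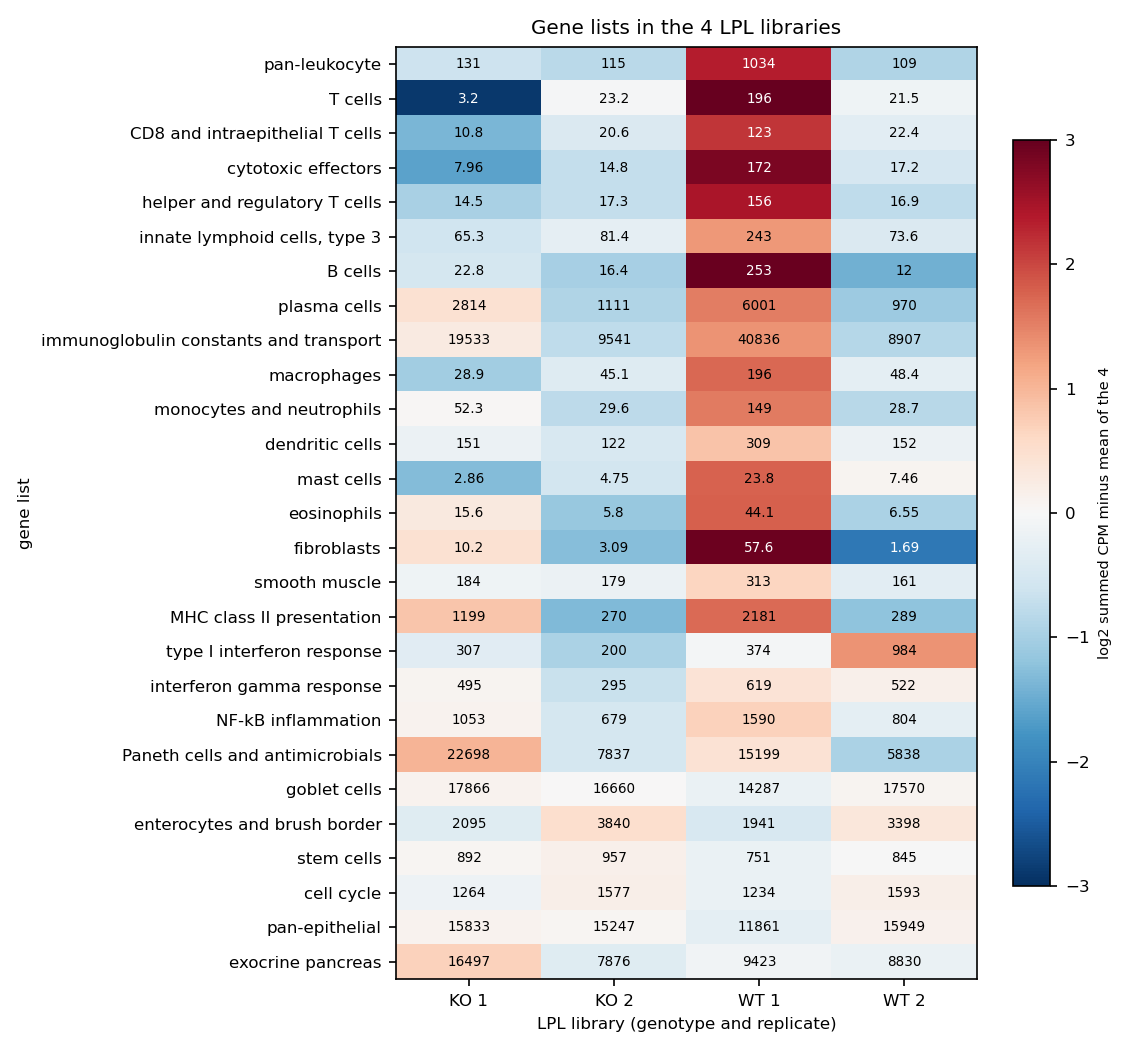
Summed CPM of 27 gene lists in the 4 LPL libraries, KO left of WT. Numbers are summed CPM, colours the log2 sum minus the mean of the 4 libraries; the leukocyte lists are high in WT 1, and the type I interferon list is high in WT 2 (984 CPM).

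No gene passed the test between KO and WT preparations (edgeR quasi-likelihood, Benjamini-Hochberg adjusted p under 0.05, 0 of 14716 genes), and 448 genes (3.04%) were under an unadjusted p of 0.05. Of these, 429 (2.92%) were lower in KO and 19 (0.129%) were higher. DESeq2 called 1 gene (0.0068%), with 601 (4.08%) under an unadjusted 0.05. That gene, named after its value was seen, was the antibody segment Ighv5-9-1, at 0.606 and 0.679 CPM in the KO libraries and 62.4 and 8.04 CPM in the WT libraries (DESeq2 adjusted p = 0.0148). Both KO libraries lay below both WT libraries for 1269 genes (8.62%) and above both for 1455 genes (9.89%), and the median log2 difference over all genes was 0.01. An exact two-sided permutation test of 2 against 2 libraries cannot go below p = 0.333. Against WT replicate 2 alone, in a fit that takes that lone library to vary like the other groups, edgeR again called 0 of 15352 genes, with 146 (0.951%) under an unadjusted 0.05. That fit called 24 genes when no filter on low counts was used, and DESeq2 called 3. Both KO libraries lay below WT replicate 2 for 4484 genes (29.2%) and above it for 4055 (26.4%), which is the background for the counts below.

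WT replicate 1 was described apart from the other libraries. A gene was counted as high in 1 library when it reached 10 CPM there and at least 4 times each of the other 3 LPL libraries, with 0.5 CPM added to each. By that rule 306 of the 9618 genes that reached 10 CPM (3.18%) were high in WT replicate 1, against 5 (0.052%) in KO replicate 1, 4 (0.0416%) in KO replicate 2 and 12 (0.125%) in WT replicate 2. The median ratio of the 306 genes to the next library was 6.87, and 157 of them were also above all 8 IEL and tissue libraries.

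The 306 genes included members of several leukocyte classes. Among list members that reached 10 CPM, the rule took 9 of 9 T cell genes, 9 of 10 B cell genes, 4 of 5 macrophage genes, 11 of 14 pan-leukocyte genes and 0 of 16 brush border genes. It took only 1 of 11 plasma cell genes, 2 of 11 immunoglobulin constant and transport genes, 1 of 10 MHC class II genes and 1 of 3 monocyte and neutrophil genes. A member could reach 10 CPM through WT replicate 1 alone, so the filter partly set these shares. The full lists of T cells, B cells, macrophages and pan-leukocyte genes hold 17, 13, 14 and 15 genes. Of the 306 genes, 70 were in any of the lists and 40 were antibody variable segments. Bank1, a B cell scaffold protein, was at 0.433 and 0.370 CPM in the KO libraries and 19.0 and 0.324 CPM in the WT libraries. The 2 KO libraries were slightly above WT replicate 2, and the groups overlapped. Ccr7, which guides lymphocytes and dendritic cells to lymph nodes, was at 0.779 and 1.36 CPM in the KO libraries and 34.8 and 1.30 CPM in the WT libraries. Lyz2, the lysozyme of macrophages, was at 3.98 and 1.98 CPM in the KO libraries and 67.8 and 1.17 CPM in the WT libraries. Here too both KO libraries were close to, or above, WT replicate 2.

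The epithelial defence cytokine Il22, made by type 3 innate lymphoid cells and helper T cells, was at 0.346 and 1.42 CPM in the KO libraries and 33.4 and 1.23 CPM in the WT libraries. Its soluble antagonist Il22ra2, a product of dendritic cells, was at 0.0865 and 0.0617 CPM in the KO libraries and 10 and 0.0648 CPM in the WT libraries. Il1a, an alarm cytokine, was at 0.260 and 0.309 CPM in the KO libraries and 13.6 and 0.324 CPM in the WT libraries. Il22 was above the value of 3 reads in all 4 libraries, whereas Il22ra2 was above it only in WT replicate 1. The neutrophil-attracting chemokine Cxcl2 was at 1.38 and 0.803 CPM in the KO libraries and 30.1 and 0.713 CPM in the WT libraries. The other genes named by the same rule were Adamdec1, Fcer2a, H2-DMb2, Clec7a, Satb1, P2ry10 and Lilrb4a. In every one of them WT replicate 1 was the highest LPL library, as the naming rule requires, and the other 3 were at most 5.58 CPM.

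**Figure D2:**
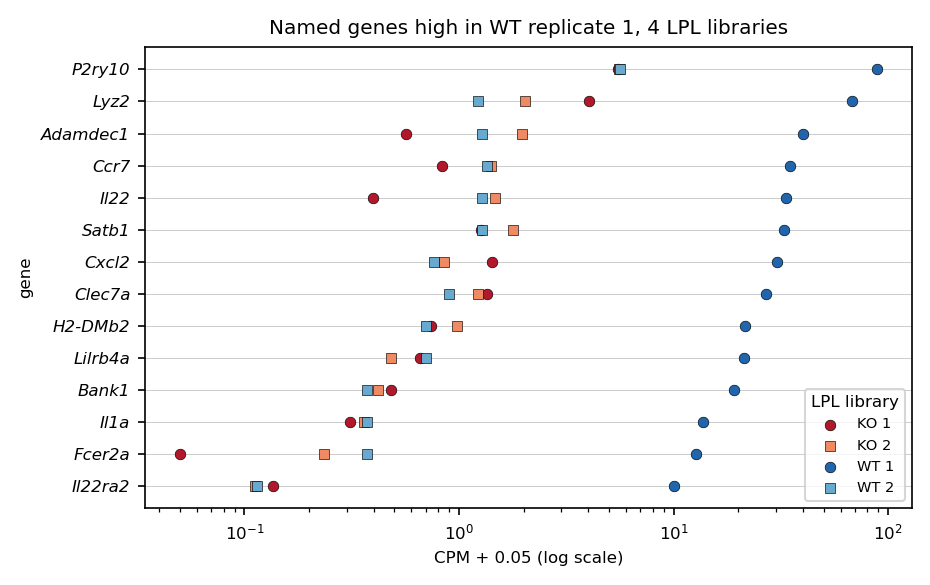
CPM plus 0.05 on a log scale for 14 genes that were high in WT replicate 1, with KO libraries in red tones and WT libraries in blue tones. WT 1 lies apart to the right, as the naming rule requires, from 10 CPM for Il22ra2 to 88.7 CPM for P2ry10. WT 2 lies among the KO libraries.

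The difference in T cell genes rested mainly on WT replicate 1. The 17 T cell genes summed to 3.20 and 23.2 CPM in the KO libraries and to 196 and 21.5 CPM in the WT libraries. All 17 had a log2 difference below 0, against 47% of all genes (median -3.10, against 0.01 over all genes), 9 were under an unadjusted p of 0.05 and none passed adjustment. Both KO libraries lay below both WT libraries for 6 of 17, against 8.62% of all genes. Against WT replicate 2 alone the median was -0.57, and the same count was 6 of 17, against 29.2% of all genes. KO replicate 1 was lowest in T cell RNA, and KO replicate 2 was near WT replicate 2. Cd3e, a signalling chain of the T cell receptor, was at 0.346 and 0.988 CPM in the KO libraries and 5.92 and 1.82 CPM in the WT libraries, and the groups did not overlap (log2 -2.45, SE 0.91, unadjusted p = 0.025 by edgeR).

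Cytotoxic effector genes were likewise highest in WT replicate 1 and lowest in KO replicate 1, at 7.96 and 14.8 CPM in the KO libraries and 172 and 17.2 CPM in the WT libraries for 16 genes. These sums did not overlap between genotypes, whereas those of T cell genes did. The median log2 difference was -2.97 with both WT libraries and -0.45 against WT replicate 2. KO lay below both WT libraries for 9 of 16, against 8.62% of all genes. WT replicate 1 was highest for all 16, and against WT replicate 2 alone the count was again 9 of 16, against 29.2% of all genes. Gzma, a granule protease of killer lymphocytes, was at 0.173 and 3.46 CPM in the KO libraries and 37.1 and 4.02 CPM in the WT libraries. Klrd1, which encodes the CD94 receptor of NK cells, was at 0 and 0.0617 CPM in the KO libraries and 3.67 and 0.389 CPM in the WT libraries. Its KO levels were under the value of 3 reads, and WT replicate 2 was just above it. CD8 and intraepithelial T cell genes had a median of -2.37, and -0.53 against WT replicate 2. Of these, 7 of 14 lay below in KO without overlap, against 8.62% of all genes. WT replicate 1 was highest for all 14, and against WT replicate 2 alone the count was again 7 of 14, against 29.2% of all genes.

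Helper and regulatory T cell genes had a median log2 difference of -2.55 over the 11 of 13 that could be tested, and -0.06 against WT replicate 2. Type 3 innate lymphoid and IL-17 and IL-22 genes had a median of -3.04 over 12 of 16, and -0.27 against WT replicate 2. Ahr, the xenobiotic sensor that these cells need, was at 18.6 and 28.5 CPM in the KO libraries and 38.2 and 27.4 CPM in the WT libraries, and the groups overlapped. Il7r, the receptor of their survival cytokine, was at 0.692 and 3.89 CPM in the KO libraries and 35.6 and 2.92 CPM in the WT libraries, and KO lay on both sides of WT replicate 2. The lists of macrophages (14 genes, median -3.38), B cells (13 genes, -3.47) and dendritic cells (11 of 13 genes, -2.60) had medians of -0.31, 0.61 and 0.53 against WT replicate 2. The sign of the last 2 lists thus turned on WT replicate 1. C1qa, a complement gene of tissue macrophages, was at 0.433 and 1.05 CPM in the KO libraries and 20.6 and 1.23 CPM in the WT libraries (log2 -3.81, SE 1.17, and -0.68, SE 0.83, against WT replicate 2). Cd83, a marker of mature dendritic cells, was at 8.05 and 9.57 CPM in the KO libraries and 96.6 and 10.4 CPM in the WT libraries. Its log2 difference was -2.60 (SE 0.81) with both WT libraries and -0.24 (SE 0.44) against WT replicate 2.

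Eosinophil genes kept a lower median against WT replicate 2 (-1.33, and -2.81 with both WT libraries), but only 5 of 8 could be tested. The list summed to 15.6 and 5.80 CPM in the KO libraries and 44.1 and 6.55 CPM in the WT libraries, so the sums overlapped. Mast cell genes summed to 2.86 and 4.75 CPM in the KO libraries and 23.8 and 7.46 CPM in the WT libraries, which did not overlap. Of the 10 mast cell genes 5 could be tested, with a median log2 difference of -1.89. It was -0.48 against WT replicate 2, over 6 genes.

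**Figure D3:**
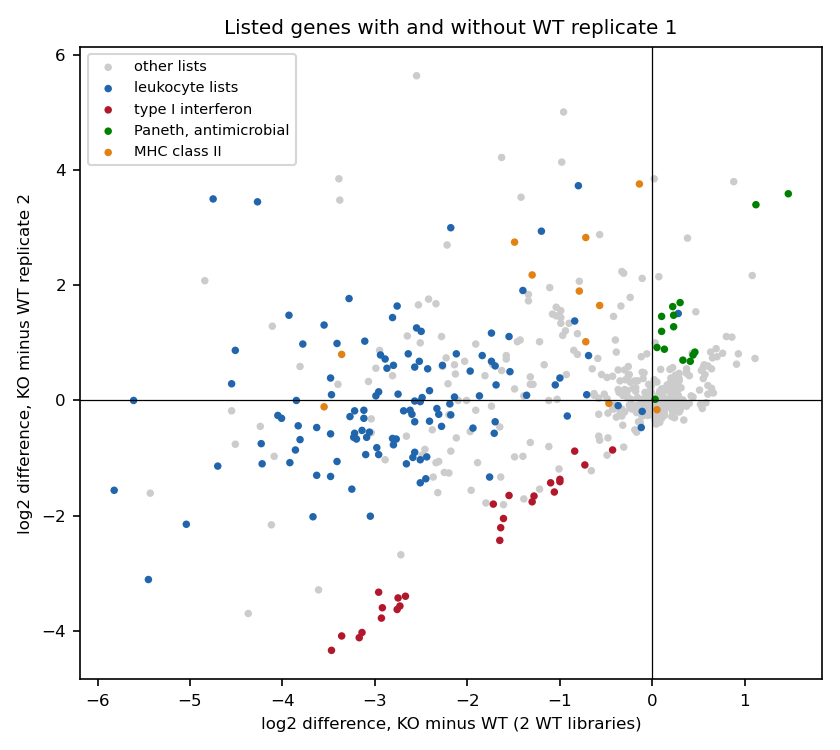
The log2 difference KO minus WT of each listed gene with both WT libraries (x axis) and against WT replicate 2 alone (y axis); both axes share the KO libraries and WT replicate 2. Leukocyte genes (blue) spread around 0 on the y axis, type I interferon genes (red) lie below 0 on both axes, and MHC class II genes (orange) lie mostly below 0 on the x axis and above 0 on the y axis.

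The summed level of the genes listed for the type I interferon response was lower in both KO preparations than in either WT preparation. Which interferon, if any, set these levels was not tested. The 25 genes summed to 307 and 200 CPM in the KO libraries and 374 and 984 CPM in the WT libraries. All 25 had a log2 difference below 0, against 47% of all genes (median -1.65), and 10 were under an unadjusted p of 0.05 but none passed adjustment. Both KO libraries lay below both WT libraries for 17 of 25, against 8.62% of all genes. Against WT replicate 2 alone, KO lay below for 25 of 25, against 29.2% of all genes, and the median log2 difference was -2.21, with all 25 below 0, as were 50.1% of all genes. Without WT replicate 2 the median was -0.72. WT replicate 2 was the highest of the 4 libraries for all 25 genes, and these genes move together, so the 25 are not independent observations.

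The effectors of the response differed in how high WT replicate 1 was. Bst2 (GRCm38 chromosome 8, 71534255 to 71537472) was at 18.9 and 7.78 CPM in the KO libraries and 36.6 and 41.5 CPM in the WT libraries. Both WT libraries were above both KO libraries, and the log2 difference was -1.55 (SE 0.44, unadjusted p = 0.00601 by edgeR). Trim30a, an interferon-induced regulator of innate signalling, was at 2.51 and 2.35 CPM in the KO libraries and 13.5 and 24.4 CPM in the WT libraries (log2 -2.96, SE 0.86). Its 2 KO values were alike, and WT replicate 1 was also well above them. Isg15 was at 2.94 and 1.36 CPM in the KO libraries and 5.77 and 22.8 CPM in the WT libraries (log2 -2.75, SE 1.06). Ifit1 was at 2.16 and 1.05 CPM in the KO libraries and 3.45 and 16.5 CPM in the WT libraries, and Ifit3, its partner in binding foreign RNA, was at 0.519 and 0.432 CPM in the KO libraries and 1.72 and 8.17 CPM in the WT libraries. These 3 genes did not overlap between genotypes, with WT replicate 2 far above WT replicate 1.

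In the Oas family, whose products make the second messenger that activates RNase L, WT replicate 2 stood alone. Oas1a was at 17.7 and 13.5 CPM in the KO libraries and 14.2 and 83.5 CPM in the WT libraries, so KO replicate 1 was above WT replicate 1. Oas3 was at 4.50 and 1.42 CPM in the KO libraries and 5.85 and 58.3 CPM in the WT libraries. Oasl2 was at 14.9 and 6.67 CPM in the KO libraries and 15.1 and 127 CPM in the WT libraries. For these genes KO replicate 1 and WT replicate 1 were close, and the size of the difference came from WT replicate 2. The helicase Ifih1, which senses long double-stranded RNA, was at 35.7 and 37.3 CPM in the KO libraries and 32.3 and 66.1 CPM in the WT libraries. Irf7, the factor that amplifies interferon production, averaged 45.9 ± 12.4 CPM in the KO libraries and 98.6 ± 34.9 CPM in the WT libraries (SD, n = 2 each). Stat2 was at 34.6 and 22.8 CPM in the KO libraries and 40.3 and 74.0 CPM in the WT libraries. Both factor genes lay lower in KO without overlap, with a log2 difference of -1.10 (SE 0.57) for Irf7. The 14 members not described singly had log2 differences from -3.17 for Ifi44 to -0.73 for Ddx58, and WT replicate 2 was highest in each.

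**Figure D4:**
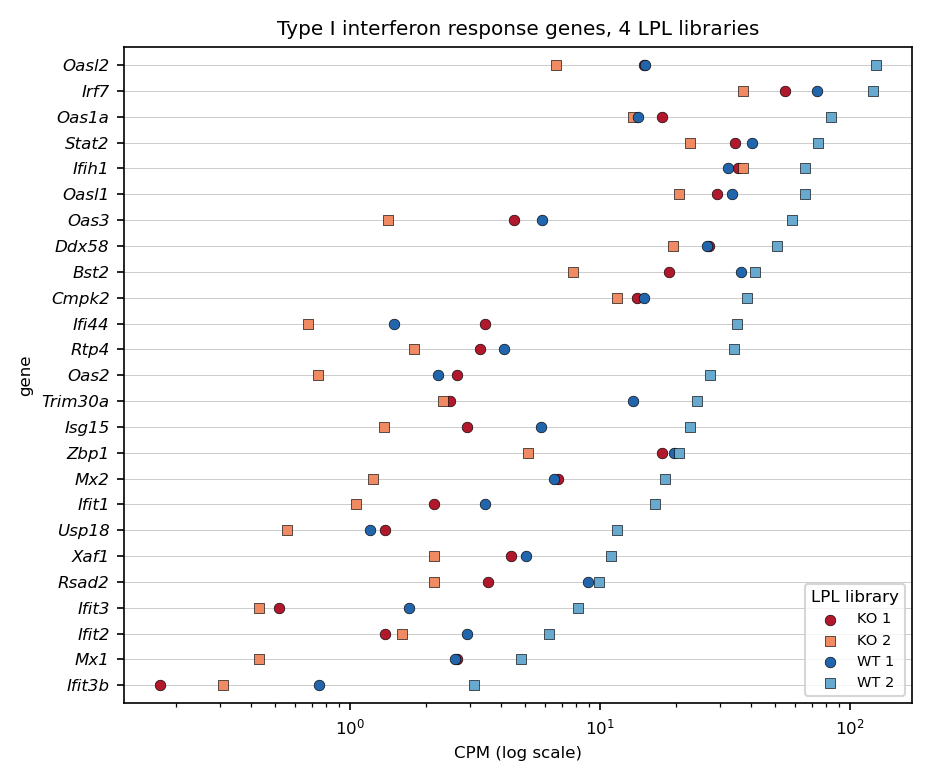
CPM on a log scale for the 25 genes of the type I interferon response in the 4 LPL libraries. WT 2 is the highest library in every row (127 CPM for Oasl2), and WT 1 lies near KO 1 in many rows.

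All 12 genes that were high in WT replicate 2 alone by the 4-fold rule are induced by interferon. They were Oas3, Ifi44, Oas2, Oasl2, Rtp4, Apol9a, Usp18, Phf11d, Oas1a, Dhx58, Oas1g and Ifit1, and 8 of them are in the list. The repeated GAAA element was in 5 of the 8 with a promoter (62.5%), against 12 of 192 genes that were high in WT replicate 1 (6.25%). Oas3, Oas1a and Ifit1 are among the 5 and were already counted in the type I list, so this share is not independent of that of the list. Dhx58, a regulator of RNA sensing, was at 7.27 and 6.23 CPM in the KO libraries and 7.50 and 36.2 CPM in the WT libraries. Rnf213, a large antiviral ubiquitin ligase, was at 114 and 93.2 CPM in the KO libraries and 127 and 451 CPM in the WT libraries. Both genes were close in KO replicate 1 and WT replicate 1. The genes that the unfiltered fit called against WT replicate 2, a single WT library, all passed the filter on low counts too. Most of those lower in KO were in the type I list, with log2 differences from -4.36 for Oas3 to -2.44 for Oas1a. Those higher in KO were all antibody variable segments.

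The interferon difference was then set against the other preparations. The type I list summed to 1049 and 2227 CPM in KO tissue and 621 and 1260 CPM in WT tissue, and to 369 and 675 CPM in KO IEL and 311 and 784 CPM in WT IEL preparations. In those preparations the genotypes overlapped, and WT LPL replicate 2 was within the range of tissue. No gene passed the test of the difference between the LPL effect and the tissue effect (edgeR, 0 of 14716, 288 or 1.96% under an unadjusted 0.05) or the IEL effect (0, with 112 or 0.761%). In the type I list 12 of 25 genes were under 0.05 against tissue and 2 of 25 against IEL, with median differences of effects of -2.55 and -1.44, against -0.02 and 0.00 over all genes. For Bst2 the LPL effect minus the tissue effect was -2.03 (SE 0.61, unadjusted p = 0.00892), and it did not pass adjustment.

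Genes of the interferon-gamma response, many of which build the GTPases that attack vacuoles of intracellular microbes, were mixed. The 19 genes summed to 495 and 295 CPM in the KO libraries and 619 and 522 CPM in the WT libraries, which did not overlap. All 19 had a log2 difference below 0, against 47% of all genes, with a median of -1.39 and of -0.69 against WT replicate 2. Of the 19, 8 lay lower in KO without overlap, against 8.62% of all genes. Against WT replicate 2 alone, KO lay below for 9 of 19, against 29.2% of all genes. Gbp3, a guanylate-binding protein, was at 2.77 and 0.556 CPM in the KO libraries and 11.2 and 10.4 CPM in the WT libraries, and Gbp4 was at 1.38 and 1.36 CPM in the KO libraries and 12.4 and 0.908 CPM in the WT libraries. Gbp3 was thus high in both WT libraries, and Gbp4 in WT replicate 1 only. Igtp, an immunity-related GTPase, was at 16.4 and 3.58 CPM in the KO libraries and 25.6 and 34.4 CPM in the WT libraries. The factor Irf1 was at 307 and 191 CPM in the KO libraries and 287 and 218 CPM in the WT libraries, and there the groups overlapped.

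Antigen presentation on MHC class II, the step at which DQ8 acts, differed more between replicates of a genotype than between genotypes. The 11 genes summed to 1199 and 270 CPM in the KO libraries and 2181 and 289 CPM in the WT libraries. Replicate 1 of either genotype was above replicate 2 of either. Cd74, the invariant chain, was at 644 and 50.4 CPM in the KO libraries and 1093 and 48.7 CPM in the WT libraries, and H2-Aa, the alpha chain of the mouse I-A molecule, was at 101 and 9.57 CPM in the KO libraries and 301 and 8.10 CPM in the WT libraries. Ciita, the master activator of the class II genes, was at 16.6 and 2.22 CPM in the KO libraries and 29.8 and 2.46 CPM in the WT libraries. All 3 genes overlapped between genotypes. The median log2 difference of the list was -0.72 with both WT libraries and 1.65 against WT replicate 2, so its sign turned on WT replicate 1. H2-Ob and H2-Oa, which form a peptide-loading inhibitor made in B cells, did not follow Cd74, and H2-Ob was at 1.04 and 1.67 CPM in the KO libraries and 27.4 and 0.778 CPM in the WT libraries. MHC class I presentation genes had a median of -0.29, and of -0.14 against WT replicate 2, and 2 of 14 lay lower in KO without overlap, near the 8.62% of all genes.

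Plasma cells are the most abundant leukocytes of the lamina propria, and their products were the most abundant leukocyte transcripts here. Igha, the heavy chain of secreted IgA, was at 11082 and 3858 CPM in the KO libraries and 26758 and 2931 CPM in the WT libraries. Jchain, which joins IgA into dimers, was at 2104 and 611 CPM in the KO libraries and 4947 and 459 CPM in the WT libraries. As for the class II sum, replicate 1 was above replicate 2 in both genotypes. The 12 plasma cell genes summed to 2814 and 1111 CPM in the KO libraries and 6001 and 970 CPM in the WT libraries, and 0 of 12 lay lower in KO without overlap. Their median log2 difference was -0.94, and 0.63 against WT replicate 2. Xbp1, the factor of the secretory programme, was at 394 and 279 CPM in the KO libraries and 474 and 287 CPM in the WT libraries. Its libraries were much closer together than those of Jchain, and it is also expressed in epithelial secretory cells. Ighm, the heavy chain of IgM, was at 22.7 and 15.7 CPM in the KO libraries and 151 and 39.9 CPM in the WT libraries, without overlap (log2 -2.31, SE 0.85, unadjusted p = 0.0238 by edgeR).

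**Figure D5:**
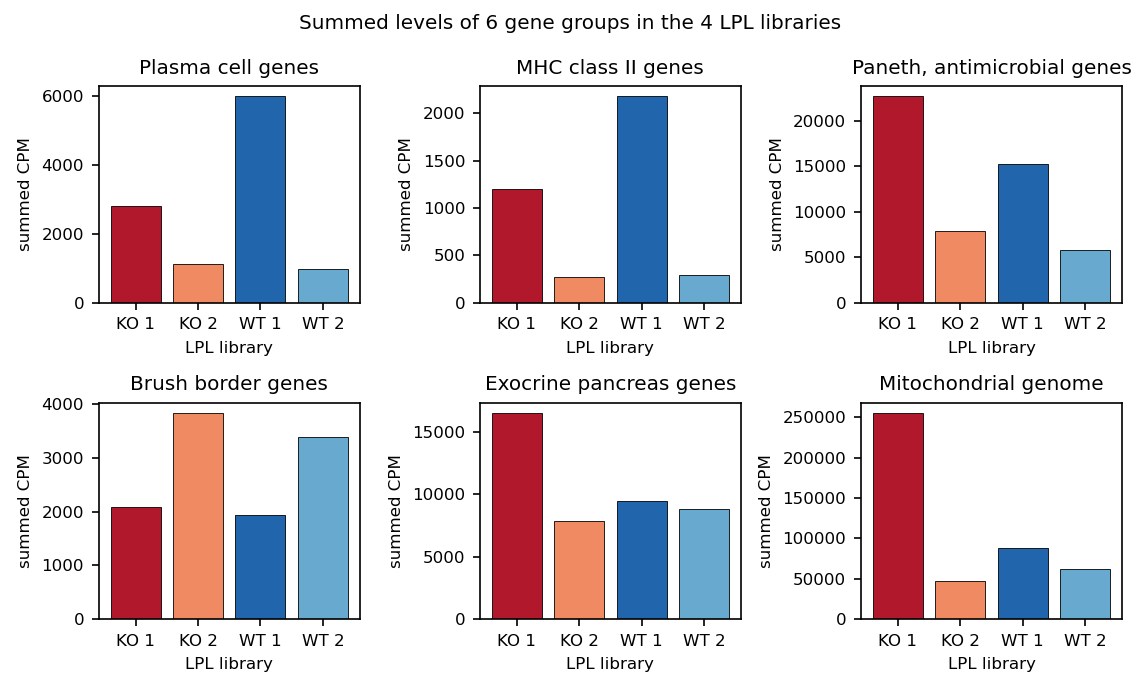
Summed CPM of 6 gene groups in each LPL library, KO bars left of WT bars. Plasma cell, MHC class II and Paneth genes are higher in replicate 1 of each genotype and brush border genes in replicate 2; mitochondrial transcripts are highest in KO 1.

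Paneth cells, which guard the crypt base with antimicrobial peptides, left transcripts in all 4 preparations. The 15 Paneth and antimicrobial genes summed to 22698 and 7837 CPM in the KO libraries and 15199 and 5838 CPM in the WT libraries. None of the 15 was free of overlap between genotypes, and the median log2 difference was 0.23, and 1.20 against WT replicate 2. Reg3b, a lectin that kills bacteria, was at 5849 and 121 CPM in the KO libraries and 1915 and 247 CPM in the WT libraries. Reg3g, its close relative, was at 3185 and 101 CPM in the KO libraries and 1359 and 155 CPM in the WT libraries. Both genes were high in replicate 1 of each genotype and lowest in KO replicate 2, and their SE was 1.43 and 1.40 on the log2 scale. Lyz1, the Paneth cell lysozyme, was at 3938 and 2011 CPM in the KO libraries and 4247 and 1289 CPM in the WT libraries. Against WT replicate 2, both KO libraries were above for 12 of 15 genes, against 26.4% of all genes. Several of these are Defa genes, near-identical copies among which reads can be split, so single Defa values are uncertain. Defa22 was at 795 and 295 CPM in the KO libraries and 716 and 167 CPM in the WT libraries.

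Other epithelial classes gave small differences. Brush border genes, which mark mature absorptive cells, summed to 2095 and 3840 CPM in the KO libraries and 1941 and 3398 CPM in the WT libraries, with a median log2 difference of 0.21 over 16 genes and of -0.06 against WT replicate 2. Replicate 2 of each genotype was above replicate 1, the reverse of the Paneth order. Stem cell genes summed to 892 and 957 CPM in the KO libraries and 751 and 845 CPM in the WT libraries, with a median of 0.23, and 3 of 10 were higher in KO without overlap, against 9.89% of all genes. Olfm4, a gene of crypt base cells, was at 437 and 483 CPM in the KO libraries and 356 and 409 CPM in the WT libraries (log2 0.27, SE 0.43). Cell cycle genes had a median of 0.03 over 17 genes, with Mki67 at 248 and 290 CPM in the KO libraries and 254 and 325 CPM in the WT libraries. Exocrine pancreas genes had a median of 0.44 over 21 genes, with all 21 above 0 and 0 free of overlap. Cpb1, a pancreatic carboxypeptidase, was at 1933 and 639 CPM in the KO libraries and 828 and 756 CPM in the WT libraries, so KO replicate 1 was highest and KO replicate 2 lowest.

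KO replicate 1 also had the largest mitochondrial share. Transcripts of 15 mitochondrial genes took 25% and 5.89% of reads in the KO libraries and 10.6% and 7.52% in the WT libraries, while IEL libraries had 18.5% to 23.8% and tissue libraries 2.77% to 4.24%. COX2, ND4L and COX3 of the mitochondrial genome were high in KO replicate 1 by the 4-fold rule, with COX2 at 2710 and 185 CPM in the KO libraries and 381 and 257 CPM in the WT libraries. KO replicate 2 alone held stomach transcripts, with Gkn2 at 0 and 16.4 CPM in the KO libraries and 0 CPM in both WT libraries, and Gkn1 at 0 and 10.2 CPM in the KO libraries and 0 CPM in both WT libraries. Fits with library sizes taken without pancreas genes, or without mitochondrial genes, also called 0 genes between KO and WT. The mitochondrial fit was added after the data were seen. Such fits change the scaling only, and the part of these contents in any difference was not tested.

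Genes of connective tissue followed WT replicate 1. The 11 fibroblast genes summed to 10.2 and 3.09 CPM in the KO libraries and 57.6 and 1.69 CPM in the WT libraries, against up to 670 CPM in tissue. Col3a1, a fibrillar collagen, was at 2.86 and 0.803 CPM in the KO libraries and 16.4 and 0.259 CPM in the WT libraries. The median of the list was -2.28 with both WT libraries and 1.76 against WT replicate 2, so its sign again turned on 1 library. NF-kB inflammation genes had a median of -0.40 over 17 of 19 genes and of 0.16 against WT replicate 2, and 0 of 17 lay lower in KO without overlap. Il1b, the inflammasome cytokine, was at 5.71 and 2.22 CPM in the KO libraries and 60.0 and 2.66 CPM in the WT libraries. Tnfaip3, the A20 brake on NF-kB, was at 83.1 and 80.6 CPM in the KO libraries and 275 and 81.6 CPM in the WT libraries. For both genes WT replicate 2 was close to KO.

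Genes tied to lnc13 itself were read next. Of the 6 genes that earlier work placed under lnc13, all had a log2 difference below 0, against 47% of all genes, with a median of -0.41 and of -0.12 against WT replicate 2. They summed to 247 and 209 CPM in the KO libraries and 348 and 308 CPM in the WT libraries, without overlap, and 3 of 6 lay lower in KO without overlap, against 8.62% of all genes. None passed adjustment. Il1rn, the IL-1 receptor antagonist, was at 0.606 and 1.11 CPM in the KO libraries and 17.8 and 0.713 CPM in the WT libraries, where only WT replicate 1 stood out. Myd88, the adaptor of Toll-like and IL-1 receptors, was at 47.2 and 46.7 CPM in the KO libraries and 44.3 and 52.8 CPM in the WT libraries, and Traf2, an adaptor of TNF receptors, was at 24.3 and 22.5 CPM in the KO libraries and 27.0 and 24.4 CPM in the WT libraries. The groups overlapped for Myd88 and barely parted for Traf2 (log2 -0.13, SE 0.20). The larger part of each library's sum came from members that are not described singly here.

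Il18rap, which encodes the IL-18 receptor accessory protein (GRCm38 chromosome 1, 40515362 to 40551707), was at 0.0865 and 0.432 CPM in the KO libraries and 3.07 and 0.130 CPM in the WT libraries. Its partner Il18r1 (chromosome 1, 40465552 to 40500854) was at 0.952 and 1.42 CPM in the KO libraries and 10.2 and 0.973 CPM in the WT libraries. Il18rap was above the value of 3 reads in KO replicate 2 and WT replicate 1, and Il18r1 in all 4 libraries. Their log2 differences were -2.51 (SE 1.39) and -2.21 (SE 1.06) with both WT libraries, and 1.00 (SE 1.57) and 0.29 (SE 0.97) against WT replicate 2. Il1r1, the signalling IL-1 receptor of the same neighbourhood, was at 0.346 and 0.123 CPM in the KO libraries and 7.20 and 1.04 CPM in the WT libraries, and was the member whose groups parted most (log2 -4.12, SE 1.15). The Il1r1 level in KO replicate 2 was under the value of 3 reads, and WT replicate 1 was far above WT replicate 2. Of 9 genes tested in this neighbourhood, 3 lay lower in KO without overlap, against 8.62% of all genes. Against WT replicate 2 alone, KO lay below for 5 of 9, against 29.2% of all genes.

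Genes ranked by p alone completed the comparison. Besides Bst2, Trim30a, C1qa, Cd83 and Lilrb4a, the lower side held Ly6e, Slfn5, Tnfrsf1b, Rasgrp1 and Slc15a3. Ly6e, an interferon-induced surface protein, averaged 117 ± 44.8 CPM in the KO libraries and 256 ± 47.5 CPM in the WT libraries (SD, n = 2 each, log2 -1.13, SE 0.33, unadjusted p = 0.00757 by edgeR). Slfn5, a member of the interferon-induced Schlafen family, was at 2.34 and 0.741 CPM in the KO libraries and 5.62 and 20.6 CPM in the WT libraries. Tnfrsf1b, a TNF receptor, was at 10.2 and 11.2 CPM in the KO libraries and 60.9 and 15.5 CPM in the WT libraries. For these 3 genes both KO libraries lay below both WT libraries, as the naming rule requires. With WT replicate 1 left out, the log2 difference was -1.65 for Bst2, -3.33 for Trim30a, -1.31 for Ly6e and -3.77 for Slfn5. It shrank to -0.54 for Tnfrsf1b, -0.87 for Rasgrp1, -0.30 for Slc15a3 and -0.33 for Lilrb4a. On the higher side were Calml4, Mgst2, Aamdc, Uqcrb, Ccdc90b, Fuom, Pin4, Srd5a3, Clec2e and Pex3, with log2 differences of 0.41 to 0.57. Calml4, a calmodulin-like protein of the brush border, was at 105 and 102 CPM in the KO libraries and 66.2 and 78.4 CPM in the WT libraries (log2 0.52, SE 0.18). Mgst2, a microsomal glutathione transferase, was at 117 and 97.3 CPM in the KO libraries and 66.4 and 84.6 CPM in the WT libraries. In each of the 10 the lowest KO library was above the highest WT library, as the naming rule requires, and none passed adjustment. With WT replicate 1 left out, their log2 differences ran from 0.23 for Fuom to 0.61 for Clec2e, with 0.40 for Calml4 and 0.34 for Mgst2.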

How the data were processed

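Poly(A) RNA of LPL, IEL and whole-tissue preparations was sequenced with a NEBNext Ultra II kit, per the labels' protocols. The deposited files hold raw read counts per Entrez gene, made from HISAT2 alignments per the file headers, whereas TopHat is named, beside featureCounts, DESeq and the mm10 build, per the submitters' processing notes. Strand use in counting is not given in the sources used here. Symbols were found for 25275 of 27179 gene IDs (99.17% of reads) in the RefSeq table, whose GRCm38.p6 coordinates and promoters are used.

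Counts were fitted with edgeR 4.0.16 in R 4.3.3 (TMM, filterByExpr, quasi-likelihood, Benjamini-Hochberg at 0.05), with 12 libraries in 6 groups. DESeq2 1.42.0 was an alternative. The same fit was made without WT replicate 1. Fits were tested on simulated data. CPM of 48 gene lists were summed with pandas 2.3.3. Members and lists were chosen with earlier results of these data known. Named genes had a mean of at least 5 CPM and no overlap, up to 10 per direction by p, plus up to 15 that were high in WT replicate 1, up to 5 in each other library and up to 4 per list by level. Further list members, and genes called by an alternative or high in WT replicate 2, were named after their values were seen. Predicted genes and variable segments of antibodies and T cell receptors were left out of the naming by p and by library. CD8 T cell samples and the RNA antisense purification samples were not used here.

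The LPL deviations of same-numbered libraries correlated at 0.301, which with 2 pairs cannot show pairing. Depth is given with the results, and floors cover counting error only. Values of some single genes are left out of the text and figures.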

Additional observations from a re-analysis of the deposited data

Results flagged for a closer look

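Of 48 gene lists, the summed CPM of 2 split fully by genotype in LPL preparations and the opposite way in whole tissue. In these, every KO library lay on one side of every WT library in each preparation. How many lists would do so by chance was not tested. The differences between preparations were not tested for these sums, only gene by gene (edgeR, LPL effect minus tissue effect). In that test 3 of 5 mast cell genes and 0 of 10 stem cell genes were under an unadjusted p of 0.05. Among all genes 288 of 14716 were under it, and none passed adjustment. Mast cell genes summed to 2.86 and 4.75 CPM in KO LPL and 23.8 and 7.46 CPM in WT LPL (log2 of the ratio of means -2.04). In tissue they summed to 8.36 and 15.6 CPM in KO and 7.16 and 3.46 CPM in WT (1.17). WT replicate 1 was the highest LPL library for 7 of the 8 mast cell genes with reads. Their median log2 difference in LPL was -1.89 with both WT libraries and -0.48 against WT replicate 2. Stem cell genes summed to 892 and 957 CPM in KO LPL and 751 and 845 CPM in WT LPL (0.21), and to 355 and 306 CPM in KO tissue and 447 and 370 CPM in WT tissue (-0.31).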

How the results depend on the processing

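The count of 0 genes called between KO and WT became 1 with the DESeq2 Wald test (Ighv5-9-1). Leaving out 1 library gave 0 to 4 calls, the 4 being Il1r2, Cd83, Csf2rb and Rn7sk without WT replicate 2 (adjusted p = 0.0399 each, edgeR). With a replicate block it was 0, with 678 genes under an unadjusted 0.05. Against WT replicate 2 alone, settings added after seeing the data gave 24 calls with no filter and 3 with the DESeq2 Wald test (Apol9a, Igkv17-121 and Igkv6-25); the cause was not tested. Both comparisons between preparations gave 0 under every alternative run. CPM without TMM factors put 3 genes, in place of 5, high in KO replicate 1.

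Of 556 gene differences over 40 genes, 532 kept their direction and side of the threshold. Cd83 passed without WT replicate 2 (log2 -3.46), and the other 23 changed sign. With the replicate block, in the joint fit and in the 4 LPL libraries alone, Iglc2 was 0.32 and 0.28, Defa29 0.25 and 0.22, and Defa32 0.22 and 0.21. When 1 library was left out, the lowest and highest log2 differences were -1.06 and 1.79 for Iglc2, -1.28 and 2.02 for Defa29, -1.05 and 1.93 for Defa32 and -1.35 and 1.56 for Defa33. They were -0.06 and 3.08 for Defa43, -0.53 and 1.70 for Defa22, -0.52 and 1.20 for Lyz1 and -0.66 and 1.63 for Defa21. They were -1.23 and 0.23 for Lgals3bp, -3.09 and 0.29 for Il18r1 and -4.04 and 1.00 for Il18rap. The highest value was the one without WT replicate 1 in all of these but Lgals3bp, whose highest was without WT replicate 2.

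Of 644 list medians, 76 moved by more than 1 SD, 34 of them without WT replicate 1. Over fits that left out 1 library, the median of type I interferon genes ranged from -2.59 to -0.72. With 2 libraries a group, and with few reads for most leukocyte genes outside WT replicate 1, absence of a difference cannot be shown.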
